A study of Mus musculus with 11 samples.

Results

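The eosinophil genes described here are 10 genes of eosinophil granules, enzymes and surface receptors: Prg2, Prg3, Epx, Ear1, Ear2, Ear6, Alox15, Siglecf, Ccr3 and Il5ra. They were selected on their use as eosinophil markers, at a point when their difference between genotypes in these same libraries was already known, and each was found by its Ensembl identifier, so 10 of the 55487 genes in the table are covered. RNA was sequenced from 11 bulk samples of acute myeloid leukaemia (AML) of mice. All carried Flt3-ITD, a tandem duplication within Flt3 that activates this cytokine receptor, and the transgene NHD13, which expresses a NUP98-HOXD13 fusion. There were 6 Ifnar1 +/- samples, with 1 intact copy of a type I interferon receptor subunit gene, and 5 Ifnar1 -/- samples, with none. The sample labels call the material AML, while the series' design text calls the cells HPCs. The sources used here do not give age, treatment, tissue of origin or the promoter of the transgene. Nor do they say whether each sample is a different mouse. Library totals ran from 25583642 to 38728143 estimated counts.

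Eosinophils are granulocytes that arise in the bone marrow. Their granules store major basic protein (encoded by Prg2, with Prg3 encoding a homologue), the haem enzyme eosinophil peroxidase (Epx) and ribonucleases of the Ear family. Interleukin 5, acting through a receptor whose specific subunit is encoded by Il5ra, drives their output, eotaxins attract them through Ccr3, and Siglec-F, encoded by Siglecf, is a common surface marker of mouse eosinophils. In a bulk sample, a higher share of cells of a type and more RNA per cell cannot be told apart.

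The Ear genes are printed first, because their sequences bear on how far their counts can be separated. Ear1, Ear2 and Ear6 lie on chromosome 14 of GRCm38, at chr14:43818765-43875517 (minus strand), chr14:44102654-44103534 (plus strand) and chr14:51853699-51854643 (plus strand). Aligned to each other, the longest annotated transcripts of Ear1 and Ear2 were 96.8% identical over 713 bases, and each was 89.0% and 89.3% identical, respectively, to that of Ear6. In the transcript of Ear1, 57.4% of all stretches of 50 bases also occurred in a transcript of another gene, against 41.5% for Ear2 and 1.07% for Ear6, so reads can be split between Ear1, Ear2, Ear10 and an Ear pseudogene, and the single values of Ear1 and Ear2 are uncertain. For the other 7 genes this share was at most 0.936%. The 250 bases upstream of the RefSeq transcription starts (GRCm38.p6) follow, 5′ to 3′ on the strand of the gene, for chr14:43819640-43819889, chr14:44102404-44102653 and chr14:51853518-51853767. The window of Ear1 lies inside the gene span given above, and that of Ear6 overlaps the start of its span. For these genes the RefSeq start is thus not the outer start of the span. Capitals mark matches to TTNCNNAA on either strand, a loose form of the motif bound by C/EBP factors.
Ear1: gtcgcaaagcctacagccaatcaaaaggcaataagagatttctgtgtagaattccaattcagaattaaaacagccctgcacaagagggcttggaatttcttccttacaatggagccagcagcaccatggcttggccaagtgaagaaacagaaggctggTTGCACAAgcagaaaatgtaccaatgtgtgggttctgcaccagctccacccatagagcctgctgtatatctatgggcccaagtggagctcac
Ear2: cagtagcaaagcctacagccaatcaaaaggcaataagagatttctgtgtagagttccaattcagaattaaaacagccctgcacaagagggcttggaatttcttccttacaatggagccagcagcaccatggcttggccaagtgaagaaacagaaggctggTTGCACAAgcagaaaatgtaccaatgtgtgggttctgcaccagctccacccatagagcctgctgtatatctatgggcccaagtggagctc
Ear6: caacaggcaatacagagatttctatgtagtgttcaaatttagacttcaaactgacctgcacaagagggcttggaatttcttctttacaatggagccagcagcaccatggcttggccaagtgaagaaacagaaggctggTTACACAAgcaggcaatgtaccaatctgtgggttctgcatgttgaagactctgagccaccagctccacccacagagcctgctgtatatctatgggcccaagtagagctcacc

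The upstream sequences of Ear1 and Ear2 were identical at 246 of 248 aligned bases (99.2%), and those of Ear1 and Ear6 at 212 of 229 (92.6%). Each held 1 match, at 92, 90 and 112 bases before the start. Of the 10 genes, 8 had an upstream window in the RefSeq table, and those of Prg2 and Alox15 were not among them. TTNCNNAA occurred in 6 of the 8 windows and in 36.8% of all 32851 windows of the same length. TTGCNNCAA, a longer pattern with more fixed letters, is not a special case of TTNCNNAA, so its absence does not grade those matches. It occurred in 0 of 8 and in 1.74% of all windows. GAGGAA, the letters of a PU.1 motif, occurred in 2 of 8 (Siglecf and Ccr3) and 23.3%. AGATAA, bound by GATA factors, occurred in 2 of 8, those of Ccr3 and Il5ra, and in 9.99% of all windows. These windows are printed for chr9:124021721-124021970 (plus strand) and chr6:106749038-106749287 (minus strand), with matches to the GATA, loose C/EBP and PU.1 motifs in capitals, since these receptor genes behaved differently from each other in the libraries.
Ccr3: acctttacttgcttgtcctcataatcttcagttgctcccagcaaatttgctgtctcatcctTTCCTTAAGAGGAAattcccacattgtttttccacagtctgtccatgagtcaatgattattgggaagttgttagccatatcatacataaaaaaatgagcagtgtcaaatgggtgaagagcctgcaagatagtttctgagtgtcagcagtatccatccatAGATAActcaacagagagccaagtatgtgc
Il5ra: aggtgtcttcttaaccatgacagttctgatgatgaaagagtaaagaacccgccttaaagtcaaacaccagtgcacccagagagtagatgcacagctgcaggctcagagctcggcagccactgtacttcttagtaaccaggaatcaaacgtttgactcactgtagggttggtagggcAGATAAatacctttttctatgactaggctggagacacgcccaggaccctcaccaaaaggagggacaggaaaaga

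A single library held most of the eosinophil transcript in the series. Together the 10 genes took 4.66% of the counts of Ifnar1 -/- library 2 (95% Wilson interval 4.65% to 4.67%). In the other 10 libraries they took 0.00283% (Ifnar1 +/- library 6) to 0.208% (Ifnar1 +/- library 2). The share in Ifnar1 -/- library 2 was thus 22.4 times the next highest. Ifnar1 +/- library 5 came next with 0.118%, and the remaining 8 libraries were at or below 0.0387%, the share in Ifnar1 -/- library 5. Intervals cover counting error only. Ifnar1 -/- library 2 stood apart in other ways too: it had 3 counts of Xist, against 1157 to 2399 in the others, and 817 counts of the Y-linked gene Ddx3y, against at most 22. Its TMM factor, which corrects for a few genes taking many reads, was 0.682, against 0.889 to 1.13 in the others, so its scaled levels below are higher than those by library totals.

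**Figure D1:**
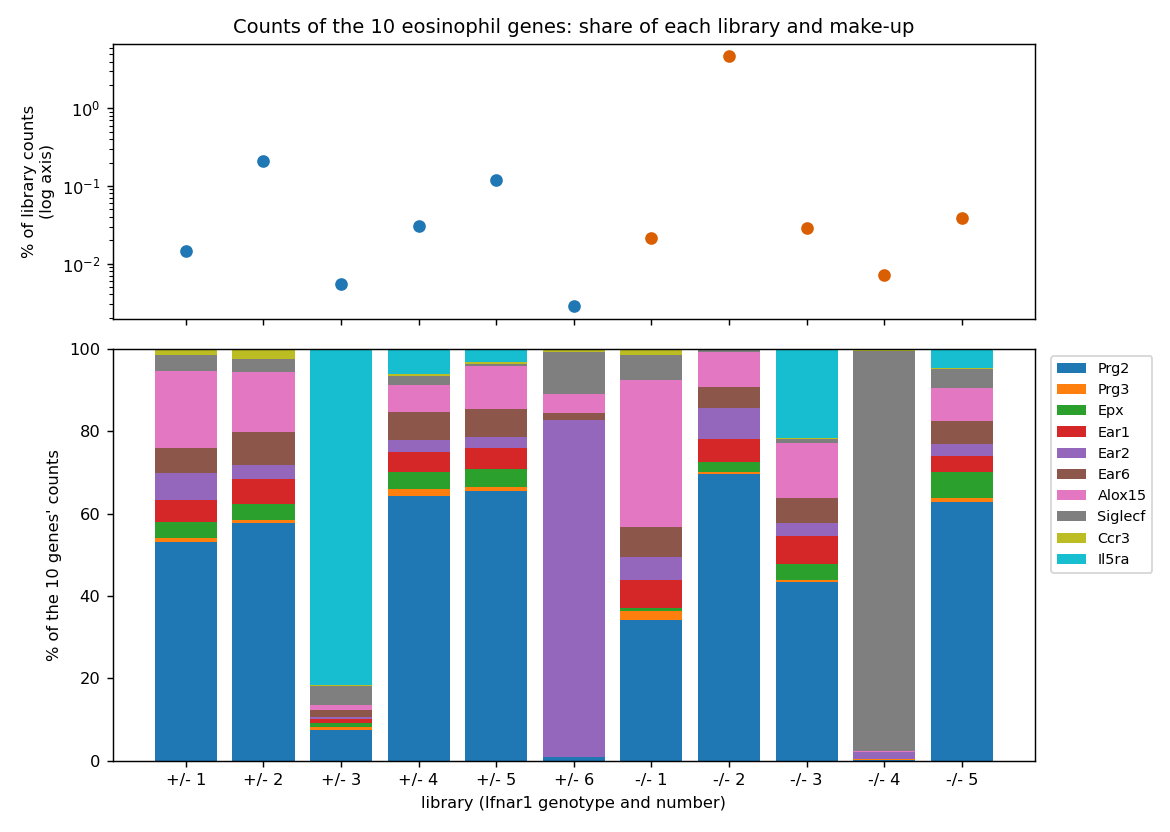
Upper panel: counts of the 10 eosinophil genes as a percentage of all counts in each library (log axis). Lower panel: share of each gene in those counts. Blue points are Ifnar1 +/- and orange points Ifnar1 -/- libraries. Ifnar1 -/- library 2 stands at 4.66%, and in Ifnar1 +/- libraries 3 and 6 and Ifnar1 -/- library 4 a gene other than Prg2 makes up most of the total.

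Prg2 was the most abundant of the 10 by count in 7 of the 11 libraries and made up 69.6% of their counts in Ifnar1 -/- library 2. In TMM-scaled CPM (library-size-scaled counts), its level was 83.3, 1166, 3.82, 182, 722 and 0.325 across the Ifnar1 +/- libraries (1 to 6), and 64.1, 47695, 120.5, 0.147 and 219 across the Ifnar1 -/- libraries (1 to 5). Apart from Ifnar1 -/- library 2, the genotypes overlapped, and each included a library with under 1 CPM. Prg2 and Prg3 are neighbours on chromosome 2, at chr2:84980461-84983632 and chr2:84988215-84993886, 4582 bases apart. Prg3 had 1.53, 18.2, 0.360, 4.76, 11.8 and 0 CPM across the Ifnar1 +/- libraries (1 to 6), and 4.08, 274, 1.58, 0.0737 and 3.45 CPM across the Ifnar1 -/- libraries (1 to 5). The libraries highest for Prg2 were also the highest for Prg3, and the 0 of Ifnar1 +/- library 6 allows at most 0.0973 CPM (3 counts).

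Epx (chr11:87864000-87875536) kept nearly the same order of libraries as Prg2. It had 5.88, 78.6, 0.432, 11.8, 46.9 and 0 CPM across the Ifnar1 +/- libraries (1 to 6), and 1.76, 1677, 10.8, 0 and 21.5 CPM across the Ifnar1 -/- libraries (1 to 5). Among the ribonucleases, Ear1 had 8.38, 122, 0.468, 13.7, 56.7 and 0 CPM in the Ifnar1 +/- and 12.8, 3944, 18.7, 0 and 14.01 CPM in the Ifnar1 -/- libraries. Ear6 followed it closely, with 9.47, 162, 0.828, 19.5, 74.2 and 0.585 CPM and 13.8, 3511, 16.8, 0 and 19.5 CPM. The genotypes overlapped for both genes as they did for Prg2. Ifnar1 -/- library 4 had 0 counts of Epx, Ear1 and Ear6, which allows at most 0.110 CPM of each, and Ifnar1 +/- library 6 had 0 of Epx and Ear1.

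Ear2 departed from Ear1 mainly in Ifnar1 +/- library 6. It had 10.4, 66.6, 0.288, 7.93, 31.1 and 26.04 CPM across the Ifnar1 +/- libraries (1 to 6), and 10.3, 5057, 9.09, 1.22 and 9.53 CPM across the Ifnar1 -/- libraries (1 to 5). In Ifnar1 +/- library 6 there were 802 counts of Ear2 and 0 of Ear1, and Ear2 made up 81.7% of the counts of the 10 genes there. Ifnar1 -/- library 4 had 33 counts of Ear2 and 0 of Ear1. Ifnar1 +/- library 6 also had 56.7 CPM of Csf1r, the gene of the macrophage colony-stimulating factor receptor, the highest value outside Ifnar1 -/- library 2, and 0.325 CPM of Prg2. Its summed level of 6 monocyte genes was 325 CPM, second among the 10 libraries other than Ifnar1 -/- library 2 (13.8 to 617 CPM). However, Ifnar1 +/- library 1, which had 617 CPM of that sum, had 10.4 CPM of Ear2 beside 8.38 CPM of Ear1. The part of monocyte transcripts in the Ear2 value was not tested.

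Alox15, which encodes a lipoxygenase that oxygenates arachidonic acid, had the second highest CPM of the 10 in Ifnar1 -/- library 2. It lies at chr11:70344152-70352031. Its levels were 29.2, 298, 0.648, 18.3, 116 and 1.43 CPM across the Ifnar1 +/- libraries (1 to 6), and 67.1, 5862, 36.9, 0.221 and 27.9 CPM across the Ifnar1 -/- libraries (1 to 5). In Ifnar1 -/- library 1 its count slightly exceeded that of Prg2. Per kilobase of merged exons it was lower there, at 27.3 against 76.4 CPM per kb. There 2173 counts of Alox15 stood beside 2074 of Prg2, or 1048 per 1000 (exact 95% interval 986 to 1113). In the other 7 libraries with at least 1000 Prg2 counts the ratio was 101 to 350 per 1000.

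**Figure D2:**
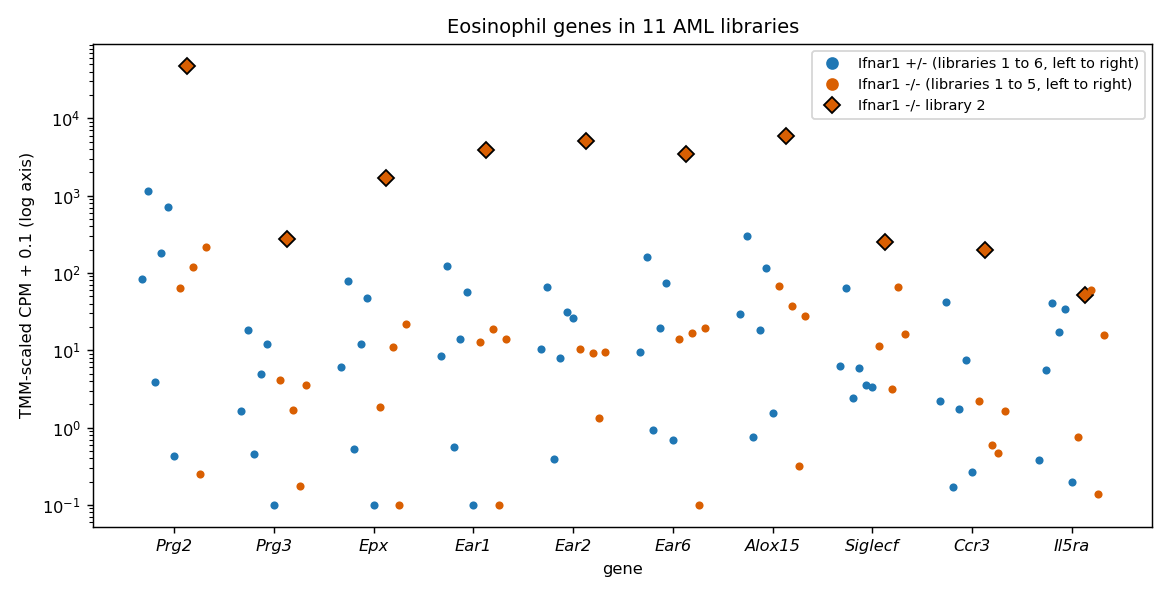
Level of each eosinophil gene in every library (TMM-scaled CPM plus 0.1, log axis), with Ifnar1 +/- libraries in blue, Ifnar1 -/- in orange and Ifnar1 -/- library 2 as a diamond. The diamond is the highest point for 9 of the 10 genes, and for Il5ra it lies among the other libraries at 52.4 CPM.

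Among the surface receptor genes, Ccr3 ranked the libraries much as the granule genes did, while Siglecf and Il5ra did not. Ccr3 (chr9:124021972-124031689), the eotaxin receptor gene, had 2.14, 42.1, 0.0720, 1.64, 7.34 and 0.162 CPM across the Ifnar1 +/- libraries (1 to 6), and 2.10, 198, 0.501, 0.369 and 1.54 CPM across the Ifnar1 -/- libraries (1 to 5). It kept the order of the granule genes at the top, with Ifnar1 -/- library 2, Ifnar1 +/- library 2 and Ifnar1 +/- library 5 the highest. The excess in Ifnar1 -/- library 2 was smaller, 4.70 times the next library, against 40.9 times for Prg2. Scaled by library totals alone, these ratios were 3.11 and 27.1.

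Siglecf (chr7:43351341-43359531) was high in a library almost without granule transcripts. It had 6.12, 64.2, 2.34, 5.86, 3.45 and 3.25 CPM across the Ifnar1 +/- libraries (1 to 6), and 11.3, 249, 3.08, 66.1 and 16.1 CPM across the Ifnar1 -/- libraries (1 to 5). Ifnar1 -/- library 4 thus came second, with 1793 counts of Siglecf, 4 of Prg2 and 0 of Epx, and Siglecf made up 97.0% of the counts of the 10 genes in it. The same library had 2003 CPM of Fcer1a and 1228 CPM of Cpa3, genes of the IgE receptor and of a carboxypeptidase of mast cells, and a summed level of 8354 CPM over 10 mast cell and basophil genes (157 to 12281 CPM in the other 10 libraries). However, Ifnar1 +/- library 1, which had 12281 CPM of that sum, had only 6.12 CPM of Siglecf. Whether mast cell or basophil transcripts had a part in the Siglecf value was not tested.

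Il5ra (chr6:106710357-106749037) was high in the libraries rich in B-lineage transcripts as well as in Ifnar1 -/- library 2. It had 0.282, 5.45, 41.05, 17.1, 33.9 and 0.0974 CPM across the Ifnar1 +/- libraries (1 to 6), and 0.649, 52.4, 60.3, 0.0369 and 15.7 CPM across the Ifnar1 -/- libraries (1 to 5). Cd79a, a B cell receptor signalling gene, reached 1995 to 3052 CPM in 5 libraries: Ifnar1 +/- 3, 4 and 5 with Ifnar1 -/- 3 and 5. Il5ra was at 15.7 to 60.3 CPM in these. In the 5 libraries other than these and Ifnar1 -/- library 2, with at most 33.6 CPM of Cd79a, Il5ra was at most 5.45 CPM. Ifnar1 -/- library 2 combined 52.4 CPM of Il5ra with 11.5 CPM of Cd79a. In Ifnar1 +/- library 3, Il5ra had 1140 counts beside 106 of Prg2 and 12 of Epx and made up 81.6% of the counts of the 10 genes. The library was thus high in Il5ra and low in granule transcripts. The part of B-lineage transcripts in the Il5ra values was not tested.

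**Figure D3:**
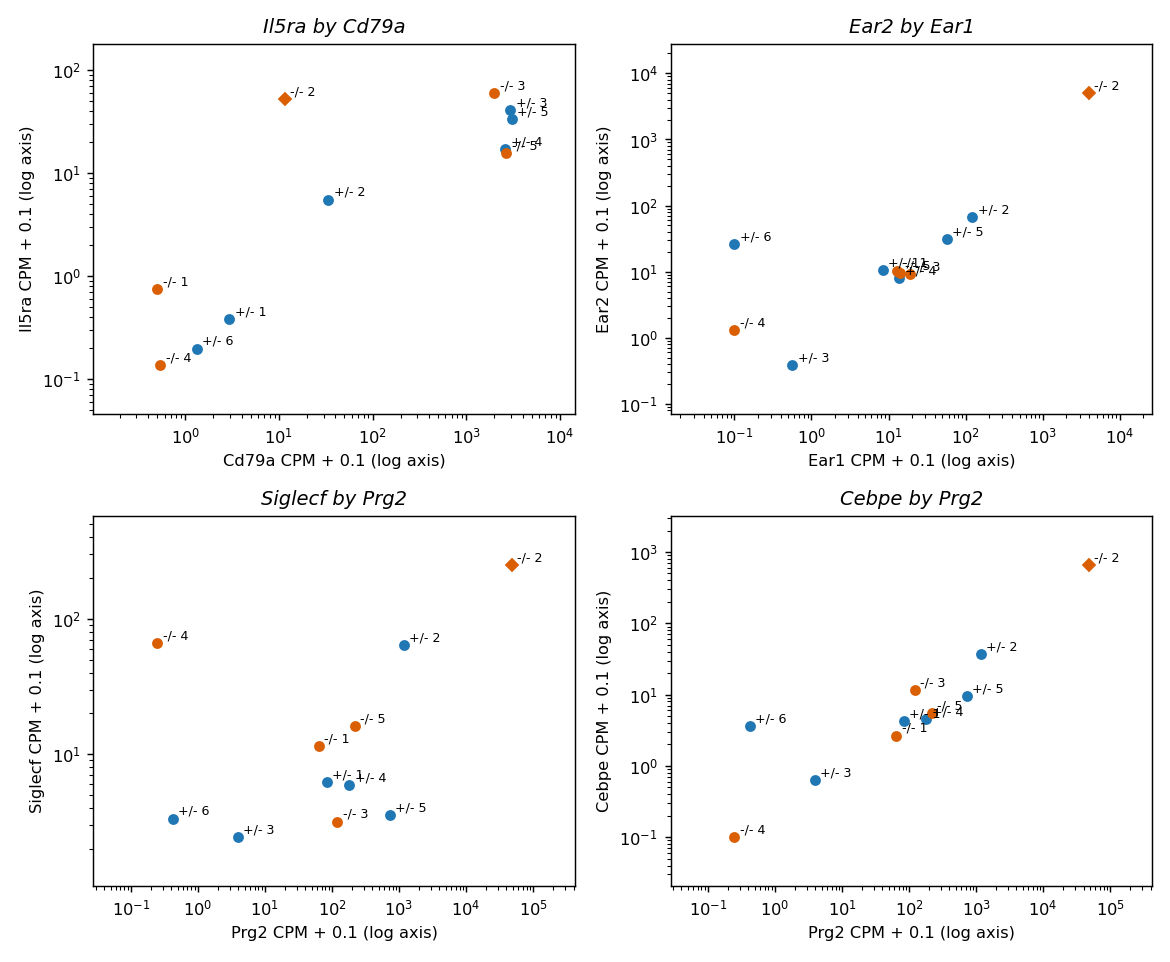
Levels in every library (CPM plus 0.1, log axes) of Il5ra by Cd79a, Ear2 by Ear1, Siglecf by Prg2 and Cebpe by Prg2, with Ifnar1 +/- in blue, Ifnar1 -/- in orange and Ifnar1 -/- library 2 as a diamond. Ifnar1 +/- library 6 lies off the others for Ear2 (26.04 CPM at 0 of Ear1) and Ifnar1 -/- library 4 for Siglecf (66.1 CPM at 0.147 of Prg2).

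Across libraries, 7 genes (Prg2, Prg3, Epx, Ear1, Ear6, Alox15 and Ccr3) rose and fell in similar order. Over the 10 libraries without Ifnar1 -/- library 2, Spearman's rho among their 21 pairs was 0.72 to 0.997, a description without a test, as the values of a library share its depth and cell make-up. With those 7 genes, rho was 0.085 to 0.43 for Siglecf, -0.0061 to 0.57 for Il5ra and 0.45 to 0.75 for Ear2. The 7 were picked from these same values, which in part sets their range, and the range of Ear2 overlaps it. The 3 highest libraries were Ifnar1 -/- library 2, Ifnar1 +/- library 2 and Ifnar1 +/- library 5, in that order, for 8 of the 10 genes, all except Siglecf and Il5ra.

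Relative to Prg2, the other genes took different proportions in different AMLs. In 8 libraries with at least 1000 counts of Prg2, Epx had 27.5 to 97.8 counts per 1000 of Prg2 and Ear6 73.6 to 216. In Ifnar1 -/- library 2 Prg3 (5.75), Ear6 (73.6), Ccr3 (4.15) and Il5ra (1.10) had their lowest ratio of the 8. For Ccr3 the exact 95% interval in Ifnar1 -/- library 2 was 4.02 to 4.28, and Ifnar1 -/- library 3, at 4.16 (2.27 to 6.99), did not differ from it beyond counting error. Ifnar1 +/- library 2, the next richest in granule transcripts, had 36.1 (34.1 to 38.2). Siglecf showed 5.21 in Ifnar1 -/- library 2, 4.78 in Ifnar1 +/- library 5 and 25.6 to 176 in the other 6. Compared with Ifnar1 +/- library 2, all the other genes except Ear2 (106 against 57.1) were lower relative to Prg2 in Ifnar1 -/- library 2.

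**Figure D4:**
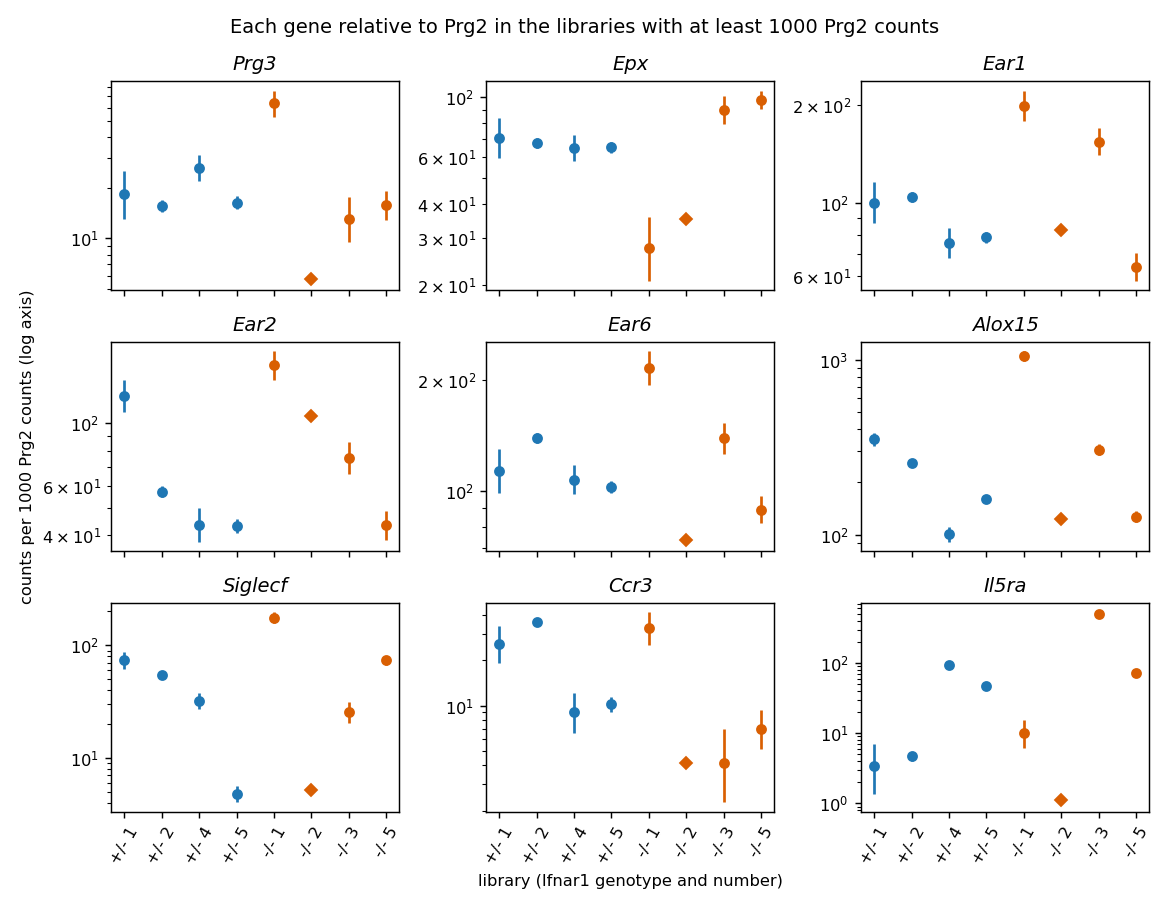
Counts of each gene per 1000 counts of Prg2 (log axes) in the 8 libraries with at least 1000 Prg2 counts. Bars are exact 95% intervals for counting error, blue points are Ifnar1 +/-, orange points Ifnar1 -/-, and the diamond is Ifnar1 -/- library 2. Ccr3 stands at 4.15 there and at 36.1 in Ifnar1 +/- library 2.

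Per kilobase of merged exons, which allows genes to be compared, Prg2 had the highest level of the 10 in Ifnar1 -/- library 2, at 56915 CPM per kb. Ear2 (7034), Ear1 (5403), Ear6 (3715) and Alox15 (2389) followed, then Epx (613) and Prg3 (289). The receptor genes were lowest, with 89.1 CPM per kb for Siglecf, 60.4 for Ccr3 and 14.7 for Il5ra. In Ifnar1 +/- library 2 the order was the same for Prg2 at the top (1392) and Il5ra at the bottom (1.52), with Ear6 (172) and Ear1 (167) next to the top.

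Between genotypes, the direction of the fitted difference turned with Ifnar1 -/- library 2 for 8 of the 10 genes. With all 11 libraries, edgeR's log2 fold change (Ifnar1 -/- against Ifnar1 +/-) was above 0 for 10 of 10 genes, with a median of 3.90, beside -0.01 over all genes tested. Without that library it was below 0 for 8 of 10, with a median of -1.49, and above 0 for Siglecf and Il5ra. All 10 had passed the filter on low counts, and the genotypes overlapped for all 10. In edgeR's quasi-likelihood test 0 of the 10 had an adjusted p under 0.05, as did 0% of the 14521 genes tested (289 genes at an unadjusted p under 0.05). Limma voom with quality weights, on the same 11 libraries, also called 0 genes and put 9 of the 10 fold changes below 0 (Prg2 at -1.57 and Il5ra at -2.83). It weights each library by quality, and the part of those weights, that of Ifnar1 -/- library 2 included, was not tested. The direction of 0 of the 10 turned in DESeq2. DESeq2 called 3 genes in all, but gave an adjusted p for only 2 of the 10, Siglecf and Il5ra (0.9997 each), and none for the other 8. As the genes were chosen with this contrast known, these values only describe them.

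For Prg2 the log2 fold change was 4.74 (SE 2.48) with all libraries and -1.80 (SE 1.88) without Ifnar1 -/- library 2. Ear2 went from 5.42 (SE 2.14) to -1.64 (SE 1.09). Ccr3 went from 2.18 (SE 1.87) to -2.95 (SE 1.60), and without Ifnar1 +/- library 2, the other library rich in Ccr3, it was 4.16. Siglecf went from 2.28 (SE 1.22) to 0.80 (SE 1.11), and was 4.04 without Ifnar1 +/- library 2. Il5ra went from 0.66 (SE 1.53) to 0.24 (SE 1.69), and was 0.064 without Ifnar1 -/- library 3 and 1.18 without Ifnar1 +/- library 3.

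**Figure D5:**
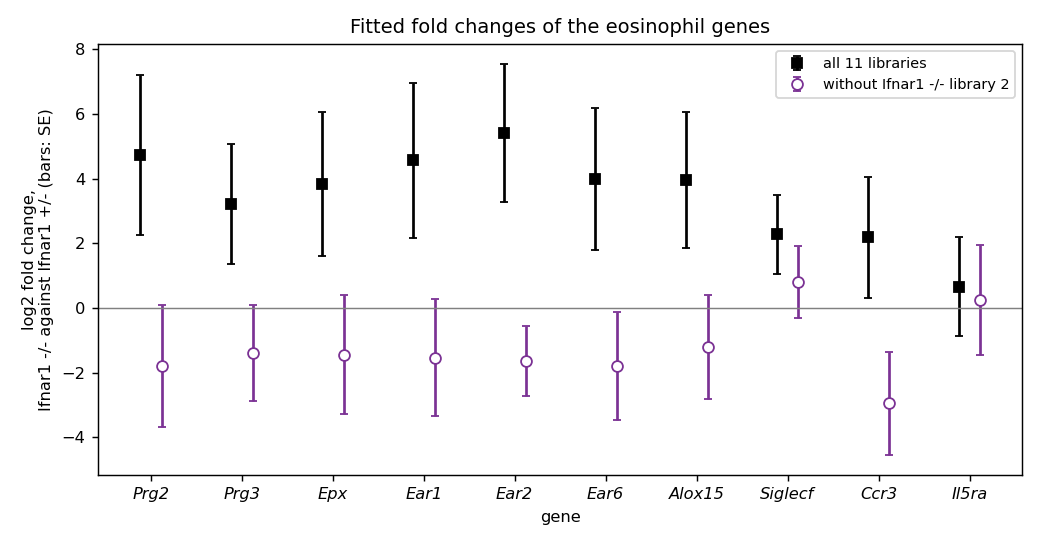
Log2 fold change of each eosinophil gene, Ifnar1 -/- against Ifnar1 +/-, from edgeR, with all 11 libraries (squares) and without Ifnar1 -/- library 2 (open circles). Bars are standard errors. All squares lie above 0, and 8 of the 10 circles lie below it.

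Of 12 eosinophil lineage transcription factor genes, 11 were tested and 0 were called in either direction. Their median log2 fold change was 0.29, beside -0.01 over all genes. Cebpe, the gene of a C/EBP factor required for late granulocyte maturation, had 4.11, 36.6, 0.540, 4.44, 9.49 and 3.47 CPM across the Ifnar1 +/- libraries (1 to 6), and 2.56, 653, 11.4, 0 and 5.34 CPM across the Ifnar1 -/- libraries (1 to 5). It was highest in Ifnar1 -/- library 2 and next in Ifnar1 +/- library 2, as the granule genes were. Spi1, which encodes the myeloid factor PU.1, had 508 CPM in Ifnar1 -/- library 2 and 26.6 to 89.5 CPM elsewhere, and Cebpb had 23.7 against at most 2.17 CPM. Gata1, a factor gene needed for eosinophils but also for red cells and megakaryocytes, had 199 CPM there, within the 3.26 to 264 CPM of the others. Gata2 (91.8 CPM, against 5.08 to 499) and Id2 (428 CPM, against 79.2 to 1653) also lay within the range of the others.

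Of 11 genes of signalling by the receptors for interleukin 5, interleukin 3 and GM-CSF, 0 were called (median log2 fold change 0.17). Csf2ra, the GM-CSF receptor subunit gene, had 410 CPM in Ifnar1 -/- library 2 and 7.89 to 45.1 CPM in the others. Csf2rb, the subunit shared by these receptors, had 1197 CPM there and 121 to 1201 CPM in the others, so it did not stand apart. Pim1, a target gene of STAT5, had 1168 CPM, and Ifnar1 +/- library 6 had 1296 CPM. Among 12 other receptors found on eosinophils, 0 of 11 tested were called (median 0.27). Of the 12, 4 were highest in Ifnar1 -/- library 2. These were Itgam (931 CPM, against 0.922 to 97.1), Adgre1, which encodes the F4/80 antigen (762 CPM, against 0.720 to 61.3), C5ar1 (745 CPM, against 3.60 to 183) and Ccr1 (418 CPM, against 4.105 to 119). The rest were not, among them Pirb (350 CPM, against 4.90 to 464), Il4ra (85.03 CPM, against 27.03 to 529.9) and Il1rl1 (13.1 CPM, against 1.33 to 172).

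Lipid mediator enzymes beside Alox15 had 0 of 8 tested genes called (median 0.03). Alox5ap and Alox5, needed to make leukotrienes, had 4102 and 2608 CPM in Ifnar1 -/- library 2, against 20.5 to 807 and 41.4 to 1605 CPM. Alox12e had 21.3 CPM there and at most 0.869 CPM elsewhere. Only these 3 of the 9 genes were highest in that library. Ptgs1 (129.5 CPM, against 17.04 to 182), Ltc4s (1.55 CPM, against 0.182 to 8.96) and Hpgds (1.65 CPM, against 0.900 to 187) lay within the range of the others. Of 7 growth factors and chemoattractants of eosinophils, Il5, Il3 and Ccl11 were too low to test (at most 0.103 CPM in any library), and of the 4 tested 0 were called (median -0.71). Ccl24, an eotaxin gene, had 56.4 CPM in Ifnar1 +/- library 6 and 29.04 CPM in Ifnar1 +/- library 2, and 0.413 CPM in Ifnar1 -/- library 2. Ccl5 had 7.12 CPM in Ifnar1 -/- library 2 and 0.215 to 145 CPM in the others, and Il33 had 0 and 0.124 to 19.02 CPM. Among 9 other ribonuclease genes, Ear10 was highest in Ifnar1 -/- library 2, at 3.51 CPM against at most 0.0334 CPM elsewhere, and was too low to test. Rnase6 (111 CPM, against 3.58 to 427) and Rnase4 (5.42 CPM, against 3.61 to 77.8) lay within the range of the others in that library, and 0 of the 2 tested were called. Ear4, Ear5 and Ear7 matched no row under these symbols and were not analysed here, so 6 of the 9 had values. Of these, Ear14 was at 0 CPM in every library.

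The summed levels of neutrophil granule and of monocyte genes were also highest in Ifnar1 -/- library 2, each carried mostly by a single gene. Neutrophil granule genes summed to 30800 CPM in Ifnar1 -/- library 2 and 5.86 to 6099 CPM in the others, and 6 of 13 were highest there. Ngp made up most of the sum, with 24050.5 CPM against 0.147 to 2149 CPM. Elane, the elastase gene of early granules, had 1.44 CPM there, against 0 to 33.5 CPM. In the same list, S100a9 (3536 CPM, against at most 788), S100a8 (1729 CPM, against at most 1613) and Lcn2 (587 CPM, against at most 316) were also highest there. So were Mmp9 (341 CPM, against at most 202) and Prtn3 (40.6 CPM, against 1.13 to 15.2). Mpo (20.9 CPM, against 0.0737 to 53.6) and Ctsg (0.619 CPM, against 0.124 to 2.43) lay within the range of the others, as did Ltf, Camp, Mmp8 and Cxcr2. Monocyte genes summed to 2062 CPM (13.8 to 617 in the others), of which Ly6c2 had 1724. Only Ly6c2 and Csf1r of the 6 were highest there, and Ccr2, F13a1, Ms4a6c and Cd68 lay within the range of the other libraries. Mast cell and basophil genes summed to 1643 CPM there, of which the histidine decarboxylase gene Hdc had 1554, and 0 of 10 were highest there. Fcer1a and Cpa3 had 12.4 and 34.0 CPM. Tissue macrophage genes were low in every library (summed 1.40 to 18.6 CPM), B-lineage genes summed to 11.8 CPM in Ifnar1 -/- library 2 (Ebf1 at 0.0516 CPM), and T and NK cell genes to 6.09 CPM. Erythroid genes summed to 2918 CPM there (549 to 86561 in the others), megakaryocyte genes to 351 CPM (13.03 to 2717) and stem and progenitor genes to 233 CPM (123 to 1165). The part of these cells in the eosinophil gene levels was not tested. Of the 5 libraries rich in B-lineage genes, Ifnar1 +/- library 5 had 722 CPM of Prg2 and Ifnar1 +/- library 3 had 3.82 CPM, so libraries rich in B-lineage transcripts ranged from high to low in Prg2.

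Among 11913 other named genes tested, the pattern most like the mean of the 10 (Spearman's rho of log2(CPM + 1) over 11 libraries, ties in alphabetical order) belonged to Lipg (0.95), Armc8 (0.94), Abhd10, Rnf144b and Smpd3 (0.91 each), and Cebpe, Foxn2 and Padi4 (0.90 each). Lipg, an endothelial lipase gene, had 163 CPM in Ifnar1 -/- library 2, 32.0 in Ifnar1 +/- library 2 and at most 6.35 CPM in the others, and Padi4, the gene of a peptidylarginine deiminase of granulocytes, had 943, 84.6 and at most 27.6 CPM. Over the 10 libraries without Ifnar1 -/- library 2, 6 of these 8 genes were again among the 8 most alike, with rho of 0.87 to 0.93, and Mtf2 and Zfp72 took the places of Foxn2 and Padi4. In that smaller set 13 genes tied for or passed the last place. The 10 libraries are part of the 11, so the overlap of the 2 lists is no separate check. With so many genes ranked over so few libraries, high rho values can also arise by chance. Armc8 and Abhd10 varied little in level (21.4 to 31.4 and 11.3 to 18.1 CPM in the other 10 libraries), so their likeness is one of rank, not of size.

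Genes were also ranked by how far their level in Ifnar1 -/- library 2 exceeded that in all other libraries. As the 10 eosinophil genes were chosen with their excess in that library known, their ranks only describe them. Of 1996 named genes outside the 10 with at least 100 CPM in that library, 48 had at least 10 times the highest other library, adding 1 CPM to both. The 10 largest were Akr1c21 (121 times), Olfm4 (102), Krt80 (37.8), Stfa2l1 (32.8), Adam19 (32.5), Clec12a (32.3), Ly6c2 (31.8), Chst13 (27.4), Stfa2 (26.8) and Slc7a11 (25.2). Olfm4, a granule protein gene of a neutrophil subset, had 1707 CPM, and Clec12a, a lectin receptor gene of myeloid cells, 776 CPM. By the same measure Ear2 (74.8), Prg2 (40.9) and Ear1 (32.1) ranked 3, 4 and 9 when counted among them, Epx (21.1), Ear6 (21.5), Alox15 (19.6) and Prg3 (14.3) ranked 17 to 28, and Ccr3 (4.61), Siglecf (3.72) and Il5ra (0.87) ranked 148, 177 and 1159.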

How the data were processed

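The authors deposited 1 table of estimated counts per gene, not scaled between samples. Per the submitters' processing notes, DRAGEN and bcl2fastq were used. For versions, build and annotation, the sources used here give nothing. The labels' protocols name Qiagen RNAeasy micro plus and Clontech SMRTr, with no further step. Identical copies of rows were dropped (287 of 55774). Symbols came from a reference table by Ensembl identifier (55141 matched), gene positions and exon lengths from GENCODE M21 (GRCm38), and upstream sequences from RefSeq (GRCm38.p6). Counts were rounded and tested with edgeR 4.0.16 (R 4.3.3): filterByExpr by genotype, TMM, glmQLFit with robust=TRUE, two-sided glmQLFTest, Benjamini-Hochberg over 14521 genes, threshold 0.05. SE is the absolute log2 fold change over the square root of F. Whether samples are separate mice is not stated, so p-values cover only the spread among these samples, of which an unknown part may be technical. Alternatives were DESeq2 1.42.0, limma 3.58.1 voom with quality weights, other scalings and filters, robust=FALSE, each library left out, and the replicate number as a block.

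The genes and lists were chosen with earlier results of these data known. Named genes are the 10 eosinophil genes, genes of highest mean or of defining role per list, the 8 most alike genes, and the 10 that most exceeded the other libraries in Ifnar1 -/- library 2. Genes with predicted or clone names were not considered for the last 2 groups. No protein sequence was used here. Intervals of shares are 95% Wilson and of ratios exact 95% (Clopper-Pearson).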

Additional observations from a re-analysis of the deposited data

Results flagged for a closer look

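In Ifnar1 -/- library 2, 22 of the values examined lay farther above the other 4 libraries of the genotype than Dixon's 95% limit for 5 samples allows. Among the eosinophil genes these were Prg2 (47695 CPM, next 219), Prg3 (274, next 4.08), Epx (1677, next 21.5), Ear1 (3944, next 18.7), Ear2 (5057, next 10.3), Ear6 (3511, next 19.5), Alox15 (5862, next 67.1), Siglecf (249, next 66.1) and Ccr3 (198, next 2.10), and with them the share of counts of the 10 genes (4.66%, next 0.0387%). The others were Ear10 (3.51 CPM), Cebpe (653), Cebpb (23.7), Spi1 (508), Csf2ra (410), Pim1 (1168), Itgam (931), Adgre1 (762), Alox5ap (4102), Alox12e (21.3), Ngp (24050.5) and Csf1r (274).

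In Ifnar1 +/- library 2 the same was found for Siglecf (64.2 CPM, next 6.12), Ccr3 (42.1, next 7.34), Cebpe (36.6), Itgam (97.1), Adgre1 (61.3) and Alox12e (0.869). Single high values also stood out for Fcer1a and Cpa3 in Ifnar1 +/- library 1 (2612 and 3752 CPM) and Ifnar1 -/- library 4 (2003 and 1228 CPM), for Id2 in Ifnar1 +/- library 1 (1653), Pim1 in Ifnar1 +/- library 6 (1296), Il4ra in Ifnar1 -/- library 4 (303) and Ccl24 in Ifnar1 -/- library 5 (2.88). In all 80 groups of values were examined and 36 were marked. The groups did not cover every gene named above, so the list is not complete. Ly6c2, with 1724 CPM in Ifnar1 -/- library 2 and at most 28.3 CPM in the other Ifnar1 -/- libraries, was not among the marked values. For normally distributed values, chance marks about 1 in 20 groups. The limit was applied to CPM without logs, and Prg2 alone spanned 7908-fold in the 10 libraries other than Ifnar1 -/- library 2. The genes were also chosen with the excess in that library known, so the number marked cannot be read against that rate. The genes are not independent of each other, since they share libraries.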

How the results depend on the processing

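The fold changes of the eosinophil genes turned in 3 settings. In limma voom with quality weights 9 of 10 were below 0: Prg2 -1.57, Prg3 -0.86, Epx -1.97, Ear1 -1.25, Ear2 -0.23, Ear6 -1.77, Alox15 -0.27, Ccr3 -0.60 and Il5ra -2.83. Without Ifnar1 -/- library 2, 8 of 10 were: Prg2 -1.80, Prg3 -1.39, Epx -1.45, Ear1 -1.54, Ear2 -1.64, Ear6 -1.80, Alox15 -1.21 and Ccr3 -2.95. With the replicate number as a block (libraries 1 to 5 of each genotype), Epx had -0.085, Ccr3 -0.024 and Il5ra -0.031, the other 7 stayed above 0 but most were much smaller (Prg2 0.35, Prg3 0.47, Ear1 0.78, Ear2 0.83, Ear6 0.60, Alox15 1.06 and Siglecf 1.79), and the count of genes called was 0. The numbers do not pair the samples by the labels, and deviations of same-numbered libraries correlated at 0.406, 0.148, 0.584, -0.547 and 0.518. DESeq2, DESeq2 size factors, library totals alone, no filter, a filter of 5 CPM in 5 libraries (8 of 10 genes left), robust=FALSE and leaving out any of the other 10 libraries turned none. With any 1 library left out, the values ran from those without Ifnar1 -/- library 2 above up to 5.61 for Prg2, 3.95 for Prg3, 4.73 for Epx, 5.66 for Ear1, 6.08 for Ear2, 5.10 for Ear6, 5.19 for Alox15 and 4.16 for Ccr3, each without Ifnar1 +/- library 2, and from 0.80 to 4.04 for Siglecf and 0.064 to 1.18 for Il5ra. The causes were not tested.

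The count of genes called between genotypes was 0 in every edgeR and voom setting, each left-out library included (0 to 0), and 3 in DESeq2. With genes that passed the filter as the denominator, the share of the 10 genes in Ifnar1 -/- library 2 was 4.67%. Depth limits the low libraries: Ifnar1 -/- library 4 had 4 counts of Prg2, 6 of Alox15 and 1 of Il5ra, and Ifnar1 +/- library 6 had 10, 44 and 3.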
